A study of Mus musculus with 27 samples.

Results

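The cytochrome P450 genes of the array were described in olfactory mucosa behind a closed nostril, in mucosa behind the open nostril of the same mice and in mucosa of sham-treated mice. The members were all genes whose array symbol starts with Cyp followed by a digit. There were 64 such genes among the 16675 named genes of the array, measured by 76 of its 29922 probes. Where a gene had several probes, as 11 did, its brightest probe on average was used. All samples came from 25-day-old female mice of the FVB strain. In the occluded group 1 naris had been closed by cautery, and the mucosa behind it was taken. The open group was the mucosa of the other side of the same individuals. The normal group was mucosa of further mice, which were given a sham cautery. Each of the 3 groups had 3 biological replicates with 3 arrays each, 27 arrays in all. Whether a replicate pooled several mice is not stated in the labels. The open side shares its animal with the occluded side, so it is a reference of the same mouse and not an untreated one.

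Cytochromes P450 are heme-containing monooxygenases that pass electrons from NADPH to molecular oxygen and insert an oxygen atom into fatty acids, steroids, vitamins and foreign compounds. The members of the Cyp1 to Cyp3 families act mostly on foreign compounds, while other families make or degrade steroid hormones, bile acids, vitamin D and retinoic acid. The olfactory mucosa is rich in a small set of the foreign-compound forms, which sit in the sustentacular cells that support the neurons and in Bowman's glands, and which are thought to clear inhaled chemicals and odorants.

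Short promoter stretches are shown for 3 of the bright nasal forms and for Cyp1a1, a textbook target of the aryl hydrocarbon receptor that lies beside Cyp1a2 on chromosome 9. Each is the 120 bases before the gene's start in RefSeq on the GRCm38.p6 assembly, read 5′ to 3′ along the gene's own strand. The Cyp2f2 stretch is chr7:27119835-27119954 on the plus strand, and that of Cyp2e1 is chr7:140763699-140763818 on the plus strand. That of Cyp1a2 is chr9:57683656-57683775 on the minus strand, and that of Cyp1a1 is chr9:57697493-57697612 on the plus strand. Capitals mark TATAAA, the letters of a TATA box, and GCGTG, the core that the aryl hydrocarbon receptor is known to bind.
Cyp2f2: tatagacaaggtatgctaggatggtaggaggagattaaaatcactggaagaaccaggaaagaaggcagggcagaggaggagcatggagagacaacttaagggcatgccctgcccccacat
Cyp1a2: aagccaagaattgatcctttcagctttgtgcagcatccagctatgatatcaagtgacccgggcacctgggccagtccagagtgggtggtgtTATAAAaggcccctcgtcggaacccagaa
Cyp1a1: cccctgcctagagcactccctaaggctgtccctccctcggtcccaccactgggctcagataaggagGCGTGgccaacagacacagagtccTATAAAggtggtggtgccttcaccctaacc
Cyp2e1: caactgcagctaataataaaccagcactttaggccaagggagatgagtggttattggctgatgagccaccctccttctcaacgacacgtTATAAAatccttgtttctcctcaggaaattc
TATAAA stands at positions -29 to -24 in Cyp1a2, -30 to -25 in Cyp1a1 and -31 to -26 in Cyp2e1, counted from the start. The GCGTG of Cyp1a1 stands at -54 to -50. In the Cyp2f2 stretch neither set of letters was found. In windows of 250 bases before to 50 after the start, searched on both strands, 35.2% of 54 promoters of 47 P450 genes held TATAAA, against 13.6% of 32851 promoters of all genes. GCGTG stood in 27.8% of the P450 promoters and in 32.4% of all promoters. The matches printed do not overlap each other, and a match describes the letters and not a binding site.

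Of the 64 genes, 51 were readable, meaning that their probe lay above the array's noise limit on most of the 27 arrays. The noise limit is 3 times the root mean square of an array's values below 0, and 48 genes lay above it on all arrays. The other 13 genes were not readable, and no level or fold is given for them: Cyp21a1, Cyp2ab1, Cyp2c29, Cyp2c38, Cyp2c65, Cyp2d34, Cyp2d9, Cyp2j5, Cyp2u1, Cyp3a16, Cyp3a44, Cyp4f41-ps and Cyp4x1. Cyp2c29, Cyp2c38, Cyp2j5 and Cyp2u1 were below noise on every array. The largest spread between replicates of a group was that of Cyp2c65, Cyp2d34 and Cyp4x1, all of them among the genes that were not readable.

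Values are log2 probe intensities after quantile normalization, 1 per biological replicate as the mean of its 3 arrays. A probe's brightness depends on its own sequence as well as on the transcript, so brightness places a probe among all probes and does not rank transcripts. In normal mucosa 9 P450 genes were bright, that is, in the top 10% of all probes: Cyp2f2, Cyp1a2, Cyp2g1, Cyp4v3, Cyp4b1, Cyp2e1, Cyp2r1, Cyp51 and Cyp4a10. The last just inside was Cyp4a10 at the 91.0th percentile, and the first outside was Cyp2a12 at the 84.7th. A list of 8 forms known from nasal tissue had 6 measured members: Cyp1a2, Cyp2b10, Cyp2e1, Cyp2f2, Cyp2g1 and Cyp4b1. Of these 6, all but Cyp2b10 were bright. The other two of the list, Cyp2a4 and Cyp2a5, were not analysed here.

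**Figure D1:**
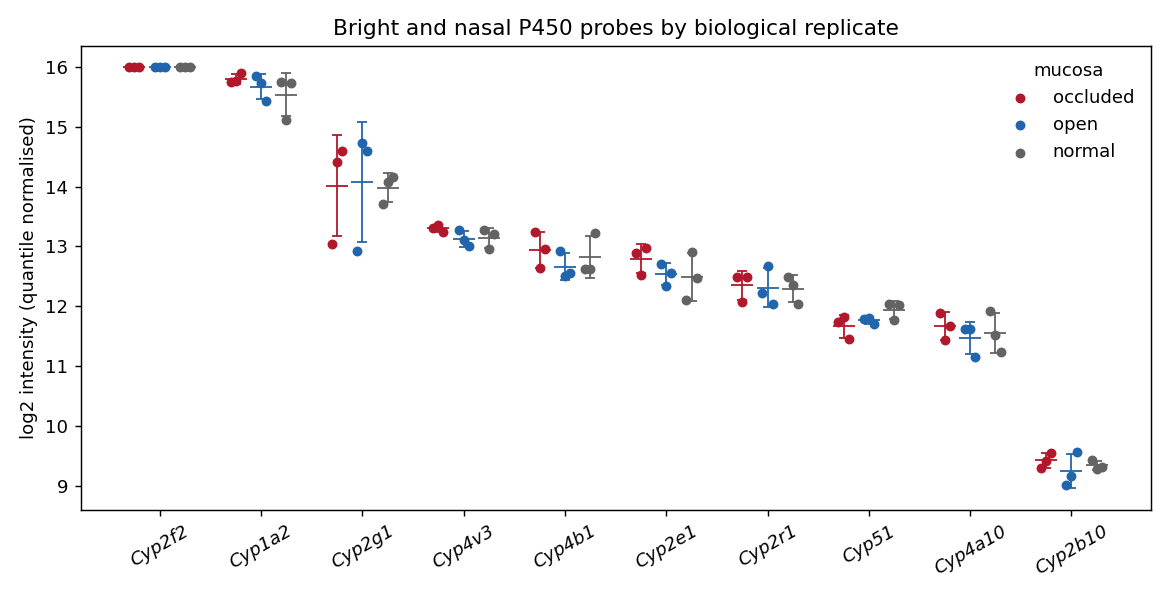
Log2 intensity (vertical axis) of the 9 bright P450 probes and Cyp2b10 (horizontal axis) in occluded, open and normal mucosa. Points are biological replicates and bars the mean ± SD (n = 3). The 3 groups overlap in all of them except Cyp2f2, whose probe was saturated on all 27 arrays and so shows no order.

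Among the bright nasal forms the groups lay close together. Cyp2f2, a form of olfactory mucosa and airway known for oxidising naphthalene, gave the highest intensity the arrays could record on 27 of 27 arrays, so no difference between groups can be read from it. Cyp1a2, which oxidises aromatic amines, had log2 intensities of 15.75, 15.76 and 15.90 in occluded, 15.84, 15.74 and 15.44 in open and 15.76, 15.12 and 15.73 in normal mucosa. It was saturated on 2 of 9 occluded arrays, so the occluded values are lower limits. The groups overlapped, and occluded minus open was 0.13 ± 0.18 (SE, limma adjusted p = 0.997).

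Cyp4b1, which converts furans and other inhaled toxicants into reactive products, had log2 intensities of 13.24, 12.64 and 12.96 in occluded, 12.92, 12.51 and 12.56 in open and 12.63, 12.62 and 13.23 in normal mucosa. Each occluded replicate lay above the open replicate of its own number, while the groups as wholes overlapped. The difference occluded minus open was 0.29 ± 0.19 (SE, limma adjusted p = 0.956). Cyp2e1, which oxidises ethanol and small solvents, showed the same pattern in the pairs. It had log2 intensities of 12.89, 12.52 and 12.97 in occluded, 12.71, 12.34 and 12.55 in open and 12.10, 12.91 and 12.47 in normal mucosa. Occluded minus open was 0.26 ± 0.19 (SE, limma adjusted p = 0.976), which did not pass the test. The differences from normal mucosa were 0.30 ± 0.24 for occluded and 0.04 ± 0.24 for open mucosa (SE), within a range of 0.81 among the normal replicates themselves.

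Cyp2b10, the phenobarbital-inducible form, had log2 intensities of 9.30, 9.42 and 9.56 in occluded, 9.01, 9.16 and 9.56 in open and 9.43, 9.28 and 9.32 in normal mucosa. All 3 groups overlapped. Occluded minus open was 0.18 ± 0.15 (SE, limma adjusted p = 0.986), and the further probes of the gene gave -0.03 and 0.06.

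Cyp2g1, a form known from the olfactory mucosa, varied more between replicates than between sides. Its log2 intensities were 13.04, 14.41 and 14.60 in occluded, 12.93, 14.72 and 14.60 in open and 13.71, 14.07 and 14.16 in normal mucosa. The replicates numbered 1 were low on both sides by more than 1 log2 unit, and the normal replicate numbered 1 was the lowest of its group too. Occluded minus open was -0.07 ± 0.37 (SE, limma adjusted p = 1.0), with a 95% interval of -0.91 to 0.78. Cyp2a12, from the same gene cluster, was also lowest in number 1 on both sides. It had log2 intensities of 10.27, 10.86 and 11.03 in occluded, 10.05, 11.33 and 11.37 in open and 10.57, 10.76 and 10.58 in normal mucosa. Occluded minus open was -0.20 ± 0.26 (SE) for this probe and 0.08 for the dimmer probe of the gene.

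The summed intensity of 10 measured sustentacular cell markers was likewise lowest in number 1 of each group. It was 145300 against 170100 and 178700 in occluded, 149400 against 194200 and 195900 in open and 151900 against 193100 and 173900 in normal mucosa. Of these markers 9 of 10 had an estimate below 0 in occluded minus open, with a median of -0.16. The Cbr2 probe was saturated, and all 10 were above noise on most arrays. The mean array median in number 1 was 161.1 in occluded, 136.5 in open and 141.7 in normal mucosa, at the low end of the 136.5 to 250.7 seen over all replicates, and occluded number 2 also had 161.1. The part of these values in the Cyp2g1 pattern was not tested. In bulk mucosa, fewer cells of a type and less RNA per cell cannot be told apart.

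**Figure D2:**
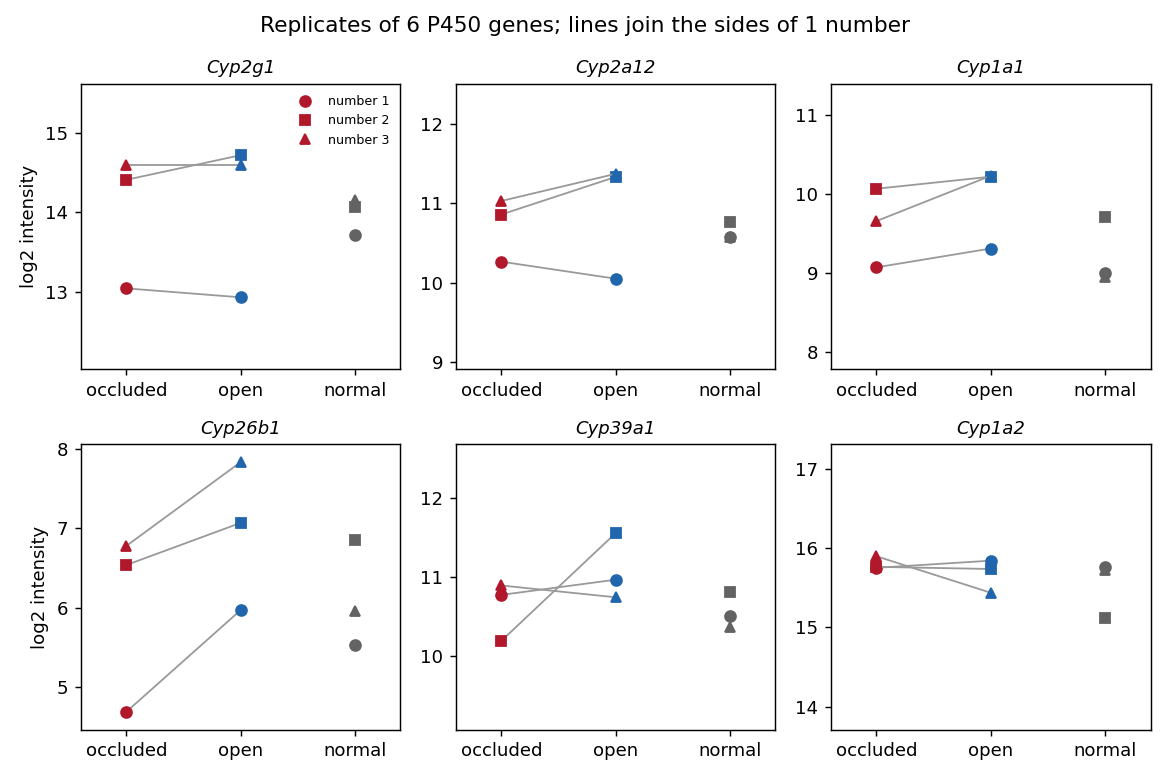
Log2 intensity (vertical axis, the same span in each panel) of Cyp2g1, Cyp2a12, Cyp1a1, Cyp26b1, Cyp39a1 and Cyp1a2 by biological replicate in occluded, open and normal mucosa. Lines join the sides of 1 title number. In Cyp2g1, Cyp2a12, Cyp1a1 and Cyp26b1 the sides of number 1 lie below those of the other numbers. In Cyp1a1 and Cyp26b1 the occluded point lies below its open partner in 3 of 3 pairs.

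Over all readable P450 genes, variation larger between numbers than between sides was not more frequent than elsewhere on the array. Which number was low or high was not counted. The range of the means of both sides between numbers was larger than each of the 3 side differences in 17 of 51 genes (33.3%), against 48.0% of 25880 readable probes. Among the bright P450 genes this was so in 2 of 9, Cyp2g1 and Cyp4b1, and in 53.0% of all bright probes. The SD between arrays of 1 replicate had a median of 0.13 in bright P450 genes and 0.29 in readable ones. The SD between replicates of 1 group had medians of 0.27 and 0.29. A replicate value is the mean of 3 arrays, so the SD between replicates holds less array noise than the SD of single arrays does. In the bright genes biological replicates thus varied more than repeat arrays did. For readable genes as a whole the equal SDs do not mean that arrays and replicates added equal spread.

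The first comparison asked how the mucosa behind the closed nostril differed from that behind the open nostril. In limma 0 of 64 P450 genes passed an adjusted p of 0.05, where 0.221% of all 29922 probes did. These 66 probes became 0 with the pair as a fixed block and with each replicate number left out, and 3 without the block. With an unadjusted p under 0.05 there were 4 genes higher on the occluded side (6.25%) and 0 lower. The shares over all probes were 3.56% higher and 2.63% lower, 6.19% in all. With the replicates numbered 1 left out, 2 genes had such a p, both higher, where 961 of 29922 probes did. Without number 2 there were 7 higher and 2 lower, where 3123 probes had such a p. Without number 3 there were 2 higher and 4 lower, where 2366 probes did, so the direction of this count rests on which replicates are used. Without the replicate block 1 gene had such a p, where 946 probes did. The median difference was 0.05 over P450 genes and 0.0042 over all probes, with 35 genes above 0 (54.7%, against 50.7% of all probes) and 29 below. Occluded lay above open in all 3 pairs for 14 genes (21.9%), against 13.8% of all probes, and below in all 3 pairs for 4 genes (6.25%), against 12.6%. Without number 3 the median over P450 genes was -0.01.

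The nasal forms had a median difference of 0.16 over 6 genes, and of 0.18 without the saturated Cyp2f2. The readable P450 genes outside the list had a median of 0.04 over 45 genes. The corresponding medians of occluded minus normal were 0.10, 0.12 and 0.07, and those of open minus normal were 0.02, 0.04 and -0.01. The bright genes had medians of 0.13, 0.11 and -0.00057 in these 3 comparisons. These medians are descriptions without a test. The 95% intervals of the 5 nasal forms without Cyp2f2 lay within 1 log2 unit of 0 in occluded minus open, which corresponds to between 0.533-fold and 1.71-fold. Of the 50 readable genes without Cyp2f2, 44 had an interval within these limits of 2-fold either way, against 41 in occluded minus normal and 39 in open minus normal.

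**Figure D3:**
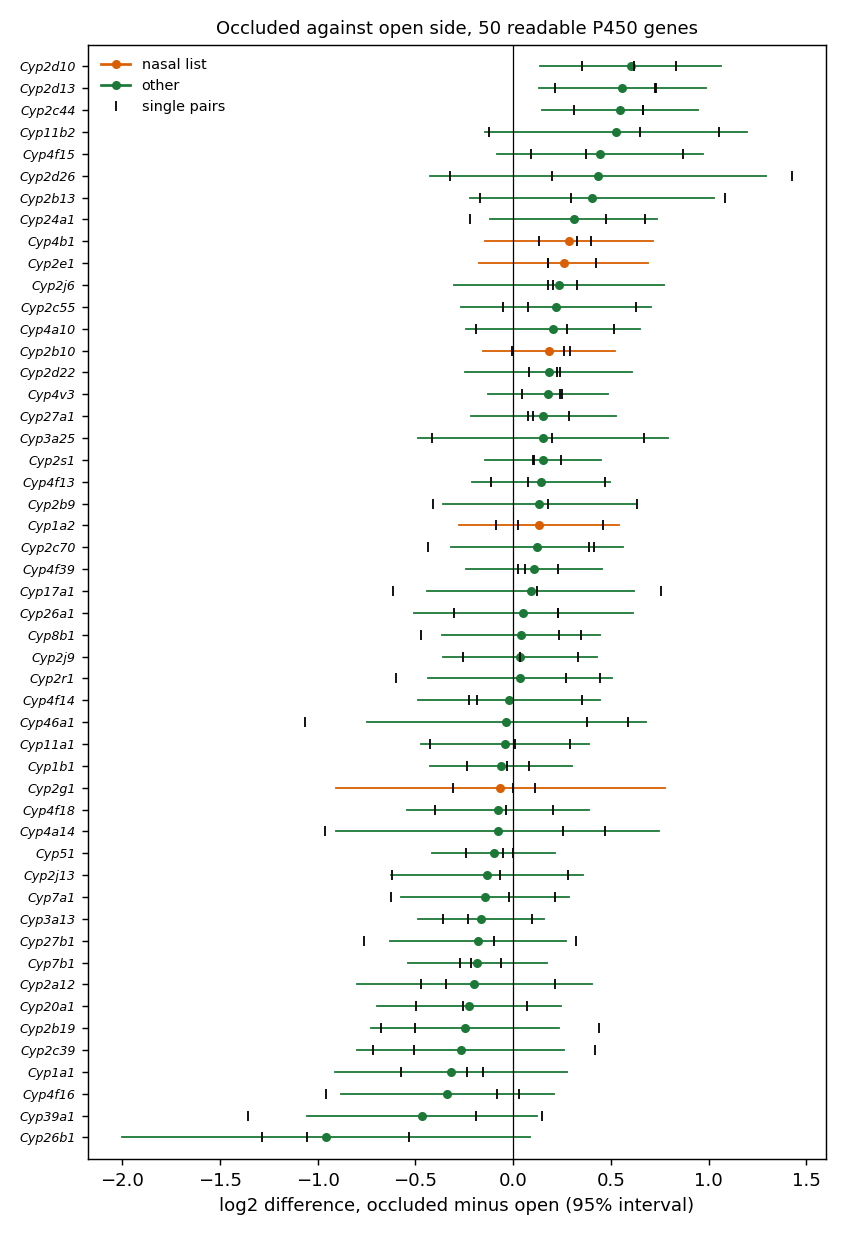
Log2 difference occluded minus open (horizontal axis) of the 50 readable P450 genes without Cyp2f2, ordered by the estimate. Dots are estimates, lines 95% intervals and ticks the 3 pairs. The intervals of Cyp2d10, Cyp2d13 and Cyp2c44 lie above 0 before adjustment, and none lies below.

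The readable genes with the smallest p among those higher on the occluded side were members of the Cyp2c and Cyp2d subfamilies. Their probes lay between the percentiles 32.72 and 49.85 of brightness in normal mucosa. The products of these subfamilies mostly act on drugs, steroids and fatty acids. Cyp2c44, which RefSeq now calls Cyp2c23, makes epoxides of arachidonic acid. It had log2 intensities of 7.95, 7.78 and 7.87 in occluded, 7.29, 7.47 and 7.21 in open and 7.77, 7.06 and 7.65 in normal mucosa. Every occluded replicate lay above every open one and every normal one, and open and normal overlapped. Occluded minus open was 0.55 ± 0.18 (SE, limma adjusted p = 0.546). The other probe of the gene gave -0.17, and the mean of both probes gave 0.19, so the 2 probes disagreed.

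Cyp2d10 had log2 intensities of 7.81, 7.42 and 7.90 in occluded, 7.46, 6.59 and 7.28 in open and 7.43, 7.79 and 7.27 in normal mucosa. Its occluded values were above the open value of the same number in 3 of 3 pairs, and occluded minus open was 0.60 ± 0.20 (SE, limma adjusted p = 0.598). Cyp2d13 had log2 intensities of 6.30, 6.03 and 6.06 in occluded, 6.09, 5.30 and 5.33 in open and 6.18, 6.09 and 5.85 in normal mucosa, and occluded minus open was 0.56 ± 0.19 (SE, limma adjusted p = 0.587). For both genes the lowest of the 9 values was an open one, and the occluded and normal values overlapped. Cyp2u1, the remaining gene with an unadjusted p under 0.05, was below noise on all arrays. Cyp2s1, an epithelial form, was the other gene besides Cyp2c44 whose occluded values all lay above the open ones, at 10.10, 10.21 and 10.17 in occluded against a range of 9.97 to 10.07 in open mucosa (0.15 ± 0.13, SE). These 2 genes are 3.12% of the P450 genes, against 3.76% of all probes. Cyp2c and Cyp2d genes have near-identical relatives, and probe sequences were not used here, so signal from a relative was not tested.

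The second comparison set occluded mucosa against normal mucosa. In limma 0 of 64 genes passed, where 0.00668% of all probes did. With an unadjusted p under 0.05 there were 1 gene higher and 1 lower, 1.56% each, against 1.62% and 1.25% of all probes, 2.88% in all. Of the 64 genes 41 lay above 0 (64.1%, against 51% of all probes). Without the replicates numbered 3 the count of both together was 1, where 666 of 29922 probes had such a p. The gene above 0 was Cyp2d22, a further member of the Cyp2d subfamily. It had log2 intensities of 6.39, 6.70 and 6.46 in occluded, 6.16, 6.62 and 6.22 in open and 5.95, 6.29 and 5.49 in normal mucosa. Its occluded values lay above all normal values, and occluded minus normal was 0.60 ± 0.24 (SE, limma adjusted p = 1.0). The gene below 0 was Cyp2c29, whose probe was below noise on all 27 arrays, so no fold is given. Groups did not overlap for Cyp2d22, Cyp2c44 and Cyp11b2 above normal (4.69%, against 3.57% of all probes). Below normal this was so for Cyp27b1, Cyp2c29 and the saturated Cyp2f2 (4.69%, against 3.09%).

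The third comparison set open mucosa against normal mucosa. In limma 0 of 64 genes passed, and 0% of all probes did. With an unadjusted p under 0.05 there were 0 genes higher and 2 lower, Cyp2c29 and Cyp2u1, both below noise on all arrays. The shares over all probes were 0.789% higher and 0.805% lower, 1.59% in all. Of the 64 genes 30 lay above 0 (46.9%, against 49.1% of all probes). Without the replicates numbered 1, 7 P450 genes had an unadjusted p under 0.05 in this comparison, 3 of them higher, where 1013 of 29922 probes did. Cyp1a1 had the smallest p above 0 among readable genes. Its log2 intensities were 9.07, 10.06 and 9.66 in occluded, 9.31, 10.22 and 10.23 in open and 9.01, 9.71 and 8.95 in normal mucosa. Open minus normal was 0.69 ± 0.33 (SE, limma adjusted p = 1) with overlapping groups, and occluded lay below open in 3 of 3 pairs (-0.32 ± 0.26, SE). Open replicates lay above all normal ones for Cyp3a13 (1.56%, against 2.06% of all probes). Open replicates lay below them for Cyp24a1, Cyp2s1, Cyp2c29, Cyp2u1 and Cyp2f2 (7.81%, against 2.21%), of which the last 3 were not readable or saturated. The 3 comparisons share their samples in pairs, so their values are given side by side and were not correlated.

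**Figure D4:**
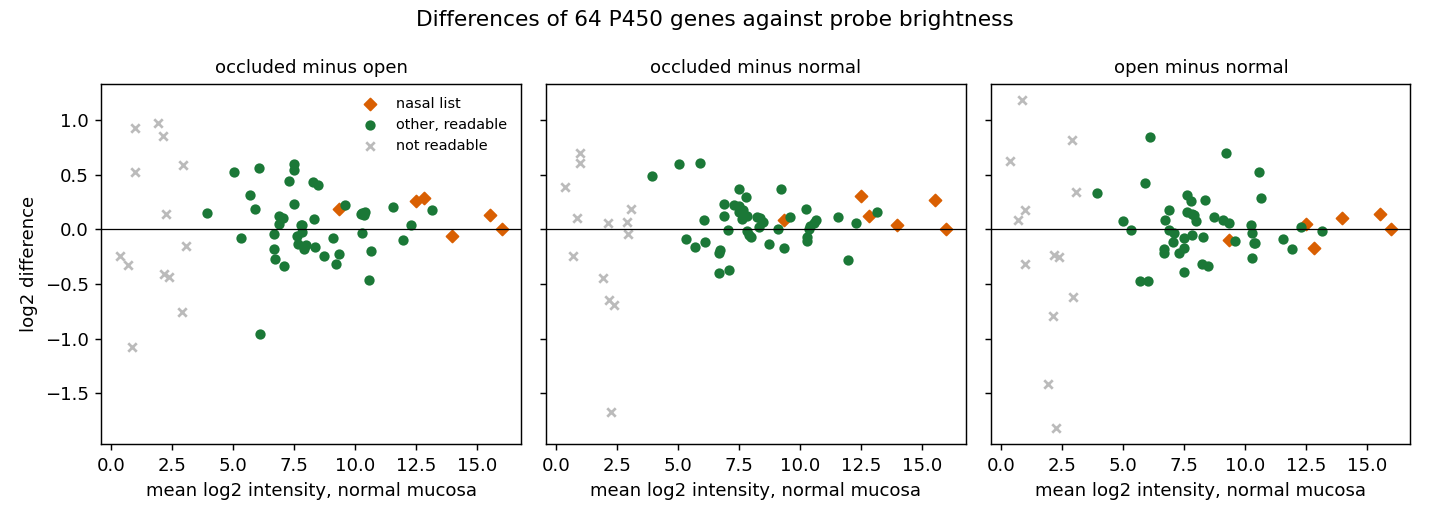
Log2 difference (vertical axis) of the 64 P450 genes against the mean log2 intensity of the probe in normal mucosa (horizontal axis) in the 3 comparisons. Diamonds are the 6 nasal forms, dots other readable genes and crosses the 13 genes that were not readable. Of the probes drawn, 1 per gene, those with a difference beyond 1 log2 unit either way are all crosses. The diamonds lie between -0.17 and 0.30.

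By role, 0 genes of each list passed in any of the 3 comparisons. The foreign-compound forms numbered 31, of which 22 were readable. Over these 22 the median of occluded minus open was 0.14, with 14 above 0 and 8 below and a range of -0.32 to 0.60. Cyp3a13, which oxidises steroids and drugs, differed by -0.16 ± 0.14 in occluded minus open and by 0.27 ± 0.18 in open minus normal (SE). The fatty acid and eicosanoid enzymes numbered 16, of which 13 were readable, with a median of 0.11 and 8 of 13 above 0. Among them Cyp4v3, a fatty acid hydroxylase and the brightest of the group, had log2 intensities of 13.31, 13.36 and 13.24 in occluded, 13.27, 13.11 and 13.00 in open and 13.27, 12.96 and 13.21 in normal mucosa. Occluded lay above open in 3 of 3 pairs, by 0.18 ± 0.13 on average (SE, limma adjusted p = 0.976). Cyp4f15 and Cyp4f16, from a subfamily that inactivates leukotrienes, had estimates of 0.44 ± 0.23 and -0.34 ± 0.24 (SE). The value of Cyp4f15 was 0.23 without number 2, and that of Cyp4f16 was -0.027 without number 3 and -0.012 with its probes averaged. Cyp2j9, an arachidonic acid epoxygenase, differed by 0.30 ± 0.22 in occluded minus normal (SE), and by 0.055 without number 2. Cyp4a10, induced by the receptor Ppara, differed by 0.20 ± 0.20 (SE) in occluded minus open and by 0.25 with its other probe.

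Cyp26b1, which degrades retinoic acid, had the lowest estimate of the readable genes in occluded minus open. It had log2 intensities of 4.69, 6.54 and 6.78 in occluded, 5.97, 7.07 and 7.84 in open and 5.53, 6.86 and 5.95 in normal mucosa. Both sides of number 1 lay below those of the other numbers. The range of the means of both sides between numbers was 1.98, larger than each side difference. The occluded value lay below the open value in 3 of 3 pairs, by 1.28, 0.53 and 1.06, while the groups overlapped. The estimate was -0.96 ± 0.46 (SE, limma adjusted p = 0.857), with a 95% interval of -2.00 to 0.09. The probe was below noise on 1 of the 9 occluded arrays, and over all settings tried the difference lay between -1.17 and -0.57. Cyp26a1, of the same function, differed by 0.05 ± 0.25 (SE).

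The bile acid and cholesterol enzymes, 6 genes and all readable, had a median of -0.09 in occluded minus open. Cyp39a1, an oxysterol hydroxylase, had log2 intensities of 10.77, 10.19 and 10.89 in occluded, 10.97, 11.55 and 10.74 in open and 10.51, 10.81 and 10.37 in normal mucosa. Its estimate of -0.47 ± 0.26 (SE, limma adjusted p = 0.912) came mostly from number 2, where occluded minus open was -1.36, and number 3 had the opposite sign. Cyp7b1, another oxysterol hydroxylase, had occluded values of 7.81, 7.87 and 7.85, all below the open values of 8.09, 7.93 and 8.07 (-0.18 ± 0.16, SE). No other P450 gene had all occluded values below all open values (1.56%, against 2.94% of all probes). Cyp7a1, the rate-limiting enzyme of bile acid synthesis, and Cyp27a1, the mitochondrial sterol hydroxylase, differed by -0.14 ± 0.19 and 0.15 ± 0.16 (SE). 

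Of the steroid and sterol enzymes, 4 of 5 were readable. Cyp51, the lanosterol demethylase of cholesterol synthesis, had log2 intensities of 11.74, 11.81 and 11.45 in occluded, 11.79, 11.81 and 11.70 in open and 12.03, 11.77 and 12.03 in normal mucosa. Occluded minus normal was -0.28 ± 0.18 (SE, limma adjusted p = 1.0), and the groups overlapped. Its other probe gave -0.33, and in occluded minus open the 2 probes gave -0.10 and -0.51. Cyp11b2, the aldosterone synthase, was dim and differed by 0.53 ± 0.29 from open and by 0.60 ± 0.38 from normal mucosa (SE). Cyp11a1, the side-chain cleavage enzyme, differed by -0.22 ± 0.24 in occluded minus normal (SE).

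The vitamin D enzymes all gave readable signal. Cyp2r1, which makes the circulating form of the vitamin, was bright and differed by 0.04 ± 0.21 in occluded minus open (SE). Cyp27b1, the activating enzyme, had occluded values of 6.07, 6.39 and 6.40, all below the normal values of 6.66, 6.66 and 6.74 (-0.40 ± 0.25, SE, limma adjusted p = 1.0). Cyp24a1, the degrading enzyme, had open values of 5.41, 5.14 and 5.11, all below the normal values of 5.91, 5.60 and 5.57 (-0.47 ± 0.24, SE, limma adjusted p = 1). Cyp20a1, a form without an established role, differed by -0.23 ± 0.21 in occluded minus open (SE).

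Several of the measured P450 genes came from a cluster of Cyp2 genes on chromosome 7. In the RefSeq order from Cyp2s1 to Cyp2f2 there are 12 protein-coding P450 genes, of which 8 had a named probe. From the first to the last these were Cyp2s1, Cyp2b10, Cyp2b13, Cyp2b9, Cyp2b19, Cyp2g1, Cyp2a12 and Cyp2f2. Cyp2g1 and Cyp2f2 lay at the 98.6th and 99.99th percentile of brightness in normal mucosa, and the other measured genes of the cluster between the percentiles 62.1 and 84.7. The median of occluded minus open over the 8 genes was 0.07, with 4 above 0 and 4 below. Cyp2b13 had the largest estimate of the cluster in occluded minus open at 0.40 ± 0.27 (SE), and Cyp2b19 the lowest at -0.25 ± 0.21 (SE).

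Genes that serve the P450 enzymes were measured as a list of 36 electron donors, heme enzymes, receptors and further microsomal enzymes. In limma 0 of 36 passed in each of the 3 comparisons. Por, the reductase that passes electrons to all microsomal forms, had means of 12.97 in occluded, 13.04 in open and 13.05 in normal mucosa, and occluded minus open was -0.07 ± 0.24 (SE). Cyb5a, the cytochrome that assists some reactions, differed by 0.06 ± 0.24, and its reductase Cyb5r3 by 0.19 ± 0.28 (SE). Alas1, the first enzyme of heme synthesis, differed by 0.07 ± 0.13 from open and by 0.30 ± 0.16 from normal mucosa (SE). Alad, the next enzyme of that pathway, differed by 0.24 ± 0.14 in occluded minus open (SE). Ahr, the receptor that controls Cyp1a1 and Cyp1a2, differed by -0.31 ± 0.25 in occluded minus open (SE).

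With an unadjusted p under 0.05 in occluded minus open there were 1 partner gene higher and 1 lower, 2.78% each, against 3.56% and 2.63% of all probes. Ephx1, the microsomal epoxide hydrolase that works on P450 products, had means of 14.63 in occluded, 14.09 in open and 14.00 in normal mucosa, a difference of 0.54 ± 0.23 from open (SE, limma adjusted p = 0.769). Fmo4, a flavin monooxygenase, had means of 7.30 in occluded, 7.77 in open and 7.57 in normal mucosa, a difference of -0.47 ± 0.19 from open (SE, limma adjusted p = 0.742).

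Markers of the cell types of the mucosa were read as summed intensities. In bulk mucosa such a sum does not separate the number of cells from the RNA per cell. The mature olfactory neuron markers, 6 of 8 measured and all above noise on most arrays, summed to between 202200 and 215500 in occluded, 165900 and 171900 in open and 171300 and 186700 in normal mucosa, so the occluded sums lay above all others. In occluded minus open 0 of 6 markers passed the test, and 4 of 6 were higher with an unadjusted p under 0.05 (66.7%, against 3.56% of all probes). Of the summed probes Omp was saturated on 9 of 9 occluded, 8 of 9 open and 9 of 9 normal arrays, and Cnga2 on 3 of 9 occluded arrays. Immature neuron markers, 5 of 5 measured, summed to between 22450 and 28120 in occluded, 29730 and 30650 in open and 25830 and 36420 in normal mucosa, so the occluded sums lay below all open ones. Horizontal basal cell markers, 4 of 4 measured, summed to between 12090 and 15280 in occluded, 14690 and 19280 in open and 14380 and 17880 in normal mucosa, with occluded below open in 3 of 3 pairs. Respiratory, blood, vomeronasal and bone marker sums overlapped between all groups. The respiratory sum was mostly Bpifa1, which was saturated on 5 of 9 occluded, 5 of 9 open and 2 of 9 normal arrays. The vomeronasal sum was mostly Gnao1, at the 98.6th percentile of brightness, against the 57.9th of Trpc2. Trpc2 was higher in occluded than open mucosa by 0.84 ± 0.17 (SE, limma adjusted p = 0.157). Every occluded Trpc2 value lay above every open and normal one. Gnao1 and Vmn1r45 gave 0.13 and -0.01 in occluded minus open. Bowman's gland markers, 10 of 11 measured, summed to between 120800 and 262100 in occluded, 148400 and 306700 in open and 106200 and 285000 in normal mucosa, with overlap of all groups. Of these 10 probes 4 were saturated on some arrays, Bpifb3 on 7 of 9 occluded, 8 of 9 open and 6 of 9 normal ones. Saturation can hide differences in the respiratory and Bowman's gland sums, so their overlap does not show equal levels. The liver markers, 3 of 4 measured and from a tissue rich in P450 enzymes, summed to between 289.6 and 339.1 in occluded, 292.6 and 342.4 in open and 279.9 and 299.0 in normal mucosa. The part of these values in the P450 differences was not tested.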

How the data were processed

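Amplified RNA of olfactory mucosa was labelled with Cy5 through amino-allyl UTP (per the labels), 1 sample per array. The deposited values are linear probe intensities of 29922 probes on 27 arrays. How the authors scanned and normalized them was not given in the sources used here, and values below 0 show that a background had been subtracted. Array medians lay between 123.3 and 273.9, noise limits between 11.6 and 24.1, and 8.57% to 19.8% of probes were below noise. A probe at or above 99.5% of an array's highest value, as 36 to 80 were, is called saturated. The number of biological replicates and of arrays limits the precision.

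Intensities not above 0 were replaced by 0.912, the smallest positive one, before log2, quantile normalization and averaging of the 3 arrays of a replicate. All probes and the 3 groups were fitted in R 4.3.3 with limma 3.58.1, data.table (version 1.17.8) and statmod 1.5.0. The individual entered as a random block, with a consensus correlation of 0.389. Tests were two-sided, with Benjamini-Hochberg adjustment over all probes and a threshold of 0.05. The design text calls the replicates biological and does not say whether mice were pooled.

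The design text states that both sides come from the same individuals, and equal title numbers were read as the same individual. The deviations of same-numbered sides from their group means correlated at 0.516, -0.00436 and 0.142. Unlike-numbered sides correlated at between -0.426 and 0.386. Occluded number 2 with open number 3 gave 0.386, and occluded number 3 with open number 2 gave 0.265. Both exceed the same-numbered values of numbers 2 and 3. With the normal replicates of the same number, which are other mice, the occluded ones correlated at 0.353, 0.0672 and 0.00152, so the values do not settle the pairing.

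An annotation table of the array gave 21020 probes 1 symbol and left 8902 unnamed; no probe had several. RefSeq (GRCm38.p6) gave current names, neighbours and promoters. The P450 members, the lists of roles, partners and markers, and the rules were chosen with earlier results of these data known. Named were the nasal forms, the 5 brightest genes, the 5 genes with the smallest p per direction and comparison, the 3 with the largest spread, up to 4 of each role list, Por, Cyb5a, Cyb5r3, Ahr and the 4 partners with the smallest p. Fdxr, which the rule also lists, was not analysed here. Cyp2a12, Cyp2b13, Cyp2b19, Cyp3a25 and Cyp4a10 were named after their values were seen. The alternatives changed the block, the normalization, an offset before log2, dim probes, several probes of a gene, the averaging of arrays and each replicate left out.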

Additional observations from a re-analysis of the deposited data

How the results depend on the processing

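With 3 replicates per group the arrays do not resolve small differences, and saturation hides any difference of Cyp2f2. The number of P450 genes and of partner genes passing the limma test was 0 in each comparison and under each alternative tried, with 53 to 64 P450 genes tested. The lowest adjusted p of a P450 gene under any alternative was 0.0935 in occluded minus open, 0.0864 in occluded minus normal and 0.928 in open minus normal. The causes of the movements below were not tested, except that fewer samples or probes were used where the setting leaves them out.

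In occluded minus open, 4 P450 genes had an unadjusted p under 0.05, as did 1852 of all 29922 probes. The P450 number was 5 where pairs were fitted as a fixed replicate block, and leaving the replicate block out gave 1. Of all probes 1705 and 946 had such a p in these settings. The P450 number was 0 when arrays were not normalized, 2 with median centring and between 2 and 9 with 1 replicate left out. Of all probes 714, 1400 and between 961 and 3123 had such a p there. The nasal median of 0.16 was 0.22 with median centring and between 0.088 and 0.18 with 1 replicate left out. In occluded minus normal, the number of 2 was 1 without normalization, with median centring, with an offset of 50, without dim probes, with several probes of a gene averaged and with the median of the 3 arrays. With 1 replicate left out the number was between 1 and 3. Over the whole array 861 probes had such a p in the main fit. The range was 449 to 880 in the former settings and 666 to 1509 with 1 replicate left out. Without dim probes 26849 were tested, and 25577 with probes averaged, in place of 29922. The nasal median of 0.10 was 0.21 without normalization. In open minus normal, the number of 2 was 1 with an offset of 50, 0 without dim probes, 4 with the mean of all probes and between 2 and 7 with 1 replicate left out. Over the whole array 477 probes had such a p in the main fit. There were 240 with the offset, 288 of 26849 without dim probes and 421 of 25577 with probes averaged. Leaving 1 replicate out gave between 442 and 1013. The nasal median of 0.022 was 0.080 without normalization, where the median of all probes was 0.098 against -0.0038 with it, so the nasal forms lay below that shift. With 1 replicate left out it was between -0.094 and 0.031.

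The sign of some single nasal forms changed. In occluded minus open, Cyp2g1 (-0.07) was 0.0059 without normalization, 0.056 with median centring, 0.057 without replicate 2 and -0.16 without replicate 1, and Cyp1a2 (0.13) ranged over the replicates left out from -0.032 without replicate 3 to 0.24. In occluded minus normal, Cyp2g1 (0.04) was -0.031 with the median of the arrays, -0.12 without replicate 2, -0.16 without replicate 3 and 0.39 without replicate 1, and Cyp4b1 (0.12) was -0.13 without replicate 1 and 0.32 without replicate 3. In open minus normal, Cyp2b10 (-0.10) was 0.064, Cyp2e1 (0.04) -0.24, Cyp2g1 (0.10) 0.54 and Cyp4b1 (-0.17) -0.39 without replicate 1. Without replicate 2, Cyp1a2 (0.14) was -0.10, Cyp2g1 -0.17 and Cyp2e1 0.35. Without replicate 3, Cyp2g1 was -0.065, Cyp4b1 0.087, Cyp1a2 0.35 and Cyp2b10 -0.27.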
